A study of Homo sapiens with 8 samples.

Results

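The change in mRNA that accompanies I-CBP112 was measured across all genes in LNCaP-FGC cells, an androgen-dependent line of human prostate carcinoma. All 8 RNA-seq libraries of the series entered the comparison. The 4 libraries with I-CBP112 were 2 from cells given I-CBP112 alone and 2 from cells given I-CBP112 and A-485 together. The 4 without it were 2 from cells given the solvent DMSO and 2 from cells given A-485 alone. Treatment lasted 24 h in every group. No dose of either compound is stated in the labels. The libraries of each group were numbered 1 and 2, and the deposited columns of each number shared a prefix. A library with I-CBP112 could therefore be set beside one that had the same number and the same A-485 status, which gave 4 matched pairs. Whether the 2 libraries of a group were separate cultures is not stated, so each p-value below reflects only the spread among libraries, part or all of which may be technical.

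p300 (EP300) and CBP (CREBBP) are related coactivators that acetylate histones and other proteins at enhancers and promoters. Each has a bromodomain, which binds acetylated lysine, and a catalytic domain, which transfers the acetyl group. I-CBP112 occupies the bromodomain and A-485 the catalytic site. In luminal prostate cells p300 and CBP are coactivators at androgen-responsive genes such as KLK3, which encodes prostate-specific antigen, and other secretory genes.

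Levels are given as scaled FPKM, which is fragments per kilobase of transcript after scaling each library to the same total and composition, so they can be compared between genes and libraries. The I-CBP112 main effect is the log2 fold change fitted over all 8 libraries with A-485 status and the replicate prefix as covariates. It equals the mean of the changes in the 4 matched pairs, on log2(scaled FPKM + 1), and is given ± its standard error. The added 1 understates the change of genes with low values. A gene was called where its adjusted p (limma, Benjamini-Hochberg over the 11877 genes tested) was below 0.05.

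The libraries held FPKM totals of 696917 to 808443 in replicate 1 and 181486 to 408673 in replicate 2, from about 1.58e+07 to 2.85e+07 and 4.44e+06 to 1.35e+07 fragments on the matched transcripts. The fragment number by which the FPKM had been divided was about 1.70e+07 to 3.14e+07 in replicate 1 and 1.58e+07 to 2.73e+07 in replicate 2, so the matched transcripts held 90.7% to 99.2% of it in replicate 1 and 21.5% to 49.4% in replicate 2. Each prefix held 1 library of each group. All 10 luminal prostate markers were measured, with a summed level of 2250 to 6010 without I-CBP112 and 1880 to 3630 with it. The basal markers KRT15 and TP63, the neuroendocrine markers CHGA, CHGB, NCAM1 and INSM1, the stromal markers COL1A2, COL3A1, DCN, LUM and PDGFRB and the immune markers PTPRC, CD3E, CD14, LYZ and HBB stayed below 1 scaled FPKM in every library. Other members were present: the stromal list's ACTA2 ran from 11.4 to 22.8, COL1A1 from 3.49 to 11.6 and VIM from 1.62 to 6.53, and the immune list's CD68 from 1.45 to 5.85. The summed basal level ran from 2.49 to 9.37 without I-CBP112 and from 2.39 to 17.4 with it, and its highest member KRT5, which reached 14.2 in I-CBP112 replicate 2, was not called (0.61 ± 0.51, adjusted p = 0.599, limma). The summed stromal level was 19.6 to 32.0 without and 25.8 to 29.4 with I-CBP112, and the summed immune level 1.45 to 5.67 and 2.07 to 6.13. The summed neuroendocrine level, almost all of it ENO2, ran from 19.3 to 37.7 without I-CBP112 and from 32.1 to 78.0 with it. Levels of mRNA in bulk samples do not separate a change in each cell from a change in which cells are present.

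With I-CBP112, 11 of 43 DNA replication genes and 4 of 15 prostate lineage transcription factors fell, and HEXIM1, the cholesterol genes INSIG1 and LSS and a small set of others rose. Of the 11877 genes, 101 (0.85%) were called for I-CBP112, 73 (0.615%) lower and 28 (0.236%) higher, with adjusted p (limma) from 0.00947 to 0.0487. The median change of the genes called lower was -0.93, and that of the genes called higher was 0.92. At least a 2-fold change was reached by 30 of the genes called lower (0.253% of those tested) and 8 of those called higher (0.0674%). Without adjustment, 2046 genes had p below 0.05, 1112 lower (9.36%) and 934 higher (7.86%). In each of the 101 called genes the 4 matched pairs moved the same way, a pattern that 12.4% of all genes showed downward and 11.2% upward. The 4 libraries with I-CBP112 lay wholly below the 4 without in 39 of the genes called lower (2.58% of all genes) and wholly above in 18 of those called higher (2.18%). The split by direction depended on the scaling: on the FPKM as deposited 77 genes were called higher and 51 lower, and with scaling to the total alone 38 higher and 40 lower.

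The calls depended on single libraries. All 101 genes kept their direction when each library in turn was left out. They were called on these same 8 libraries and the 4 pairs of each moved one way, so that outcome was nearly fixed in advance. Of the 101 genes, 0 were called in all 8 of those fits (limma), and the largest number of such fits in which a gene was called was 4. Without DMSO replicate 1 the number called was 192, and without DMSO replicate 2 it was 15. It was 7 and 1 without I-CBP112 replicate 1 and 2, and 0 and 4 without replicate 1 and 2 of the combination. Without either A-485 library it was 0. In the 3 fits with 0 calls, between 1323 and 1518 genes still had an unadjusted p below 0.05. When a term for the interaction of I-CBP112 with A-485 was added to the fit, 313 genes were called, 233 lower (1.96%) and 80 higher (0.674%), and all 101 genes were among them.

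DNA replication genes were the group with the most calls. G1/S genes license replication origins, make nucleotides and copy DNA, and many are driven by E2F factors. Of 43 measured, 11 fell, 0 rose and 40 had a change below 0, with a list median of -0.69 against -0.004 over all genes. Over all genes 50.8% were below 0 and 0.615% were called lower. Of these 43, 37 had an unadjusted p below 0.05 with a lower value, against 1112 of all 11877 genes (9.36%). The members called were CDC6, RRM2, CDC45, MCM10, MCM7, E2F1, RFC3, GINS2, GINS1, ORC1 and TK1. CCND3 (0.01), CCNE1 (0.08) and SLBP (0.13) were the 3 with a change above 0.

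CDC6 loads the MCM helicase onto replication origins. Its level was 22.6 and 29 scaled FPKM with DMSO and 13.7 and 14.1 with I-CBP112, and it was 11.6 and 19.6 with A-485 and 3.17 and 4.90 with both. Each library with I-CBP112 lay below its matched library, though the I-CBP112 libraries overlapped the A-485 libraries. The main effect was -1.27 ± 0.20 (adjusted p = 0.041, limma), a 2.40-fold fall. RRM2, a subunit of ribonucleotide reductase, which makes deoxynucleotides, was at 43.9 and 35.3 with DMSO, 18.9 and 23.3 with I-CBP112, 24.3 and 30.8 with A-485 and 7.78 and 8.67 with both. All 4 of its libraries with I-CBP112 lay below the 4 without, and the change was -1.25 ± 0.18 (adjusted p = 0.0384, limma).

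MCM7, a subunit of the MCM helicase, was at 134 and 100.5 with DMSO, 64.0 and 61.6 with I-CBP112, 62.7 and 65.9 with A-485 and 25.4 and 25.7 with both. Levels with either compound alone overlapped, and the lowest levels were with both. Its change was -1.09 ± 0.13 (adjusted p = 0.0337, limma). E2F1, the transcription factor itself, changed by -1.02 ± 0.13 (adjusted p = 0.0351, limma), from 74.1 and 33.8 with DMSO to 30.6 and 19.2 with I-CBP112. With A-485 E2F1 was at 34.8 and 23.1, and with both compounds at 15.2 and 11.9. GINS1, part of the active helicase, went from 13.5 and 14 to 6.62 and 7.14 with I-CBP112, and from 9.0 and 12 with A-485 to 4.26 and 6.24 with both.

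**Figure D1:**
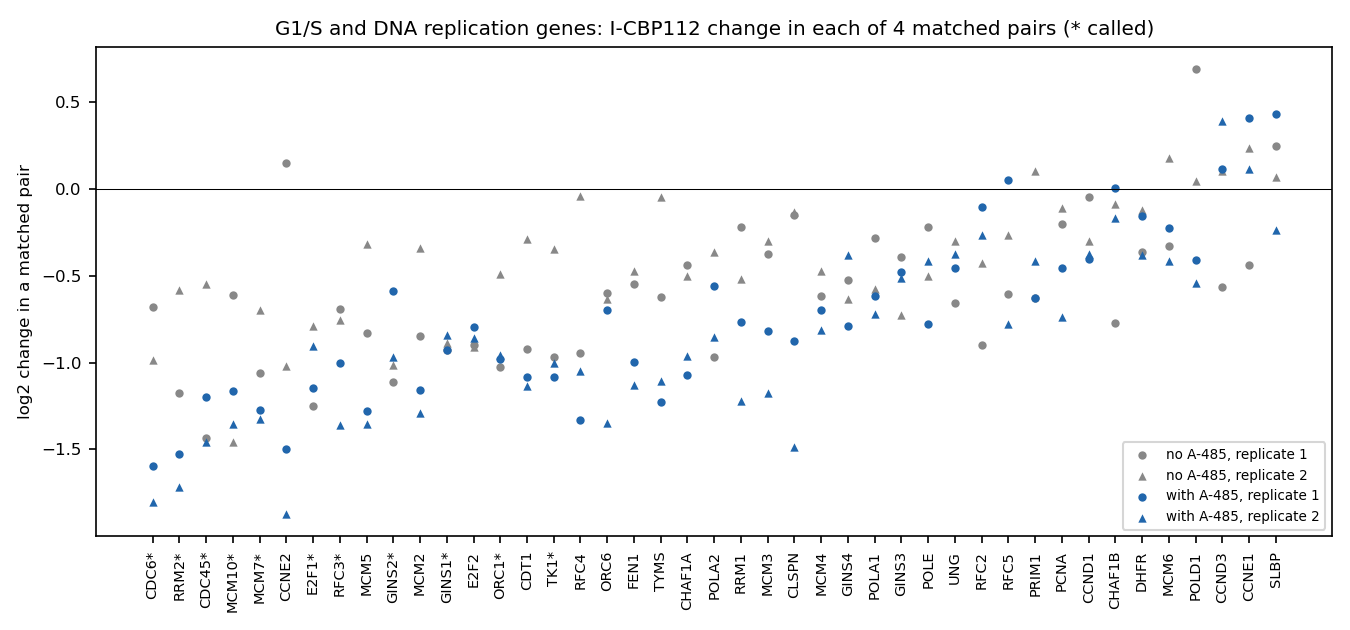
Log2 change in scaled FPKM with I-CBP112 in each of the 4 matched pairs (vertical axis) for the 43 measured G1/S and DNA replication genes (horizontal axis, ordered by main effect); grey points are pairs without A-485, blue points pairs with it, circles replicate 1 and triangles replicate 2, and asterisks mark called genes. All 4 points of each of the 11 called genes lie below 0, as the 4 pairs of all 101 called genes moved one way. In 34 of the 43 genes all 4 points do (12.4% of all genes).

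G2/M and mitosis genes act later in the cycle, in spindle assembly and chromosome separation. All 35 measured had a change below 0 (50.8% of all genes), with a median of -0.52, and 3 were called lower (0.615% of all genes). An unadjusted p below 0.05 downward (limma) was found in 23 (9.36% of all genes). MYBL2, a transcription factor that acts before mitosis, fell by 1.0 ± 0.13 on the log2 scale (adjusted p = 0.0351, limma). AURKB, the kinase of the chromosomal passenger complex, and FOXM1, a transcription factor of mitotic genes, changed by -0.76 ± 0.13 (adjusted p = 0.048) and -0.61 ± 0.10 (adjusted p = 0.045, limma for both). FOXM1 was at 66.0 and 47.0 with DMSO and 38.6 and 32.1 with I-CBP112, then at 66.3 and 50.3 with A-485 and 39.8 and 36.8 with both. Its 4 libraries with I-CBP112 lay below the 4 without, and its A-485 main effect was 0.08 ± 0.10. The list median was -0.28 without A-485 and -0.73 with it, a difference that was not tested for the list.

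To show the start regions of 2 genes of the replication list that moved together, the 250 bases before each start are given from RefSeq on GRCh38.p14, 5′ to 3′, with capitals marking each match on either strand to CCAAT, to the TATA string TATAAA, to the E-box CACGTG and to TTTNGCG, an E2F-like motif whose search was added after the values were seen. CDC6 lies at chr17:40287629-40287878 on the plus strand and RRM2 at chr2:10122489-10122738 on the plus strand.
CDC6: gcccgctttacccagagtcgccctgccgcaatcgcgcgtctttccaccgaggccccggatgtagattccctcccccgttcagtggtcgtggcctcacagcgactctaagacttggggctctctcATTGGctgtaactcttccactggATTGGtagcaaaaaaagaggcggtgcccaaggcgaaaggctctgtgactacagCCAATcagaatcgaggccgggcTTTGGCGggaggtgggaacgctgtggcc
RRM2: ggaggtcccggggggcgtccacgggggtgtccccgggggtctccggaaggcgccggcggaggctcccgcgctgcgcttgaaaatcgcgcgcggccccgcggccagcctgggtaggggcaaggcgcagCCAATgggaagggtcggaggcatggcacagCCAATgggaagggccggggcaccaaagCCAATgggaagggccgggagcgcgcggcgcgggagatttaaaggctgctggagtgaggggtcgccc
Each sequence holds 3 copies of CCAAT, that of CDC6 also 1 of TTTNGCG, and neither holds TATAAA or CACGTG.

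Over the 9628 tested genes with a matched start region, 35.9% held CCAAT on at least 1 strand. Among the genes called lower the share was 51.8% (29 of 56), among the replication list 54.1% (20 of 37) and among the genes called higher 31.8% (7 of 22). TTTNGCG was in 7.0% of all, 29.7% (11 of 37) of the replication list and 8.9% (5 of 56) of the genes called lower. AGAACA, a core letter string of steroid response elements, was in 7.1% of all and 8.9% (5 of 56) of the genes called lower. The planned sets were the genes called by at least 2-fold. Of those called lower, CCAAT was in 60.9% (14 of 23), TTTNGCG in 21.7% (5 of 23) and AGAACA in 13.0% (3 of 23). Of those called higher, 28.6% (2 of 7) held CCAAT, and 0.0% (0 of 7) held TTTNGCG or AGAACA. These are counts of letters in a window, and binding was not measured.

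Transcription factors of the prostate lineage, a smaller list, were next by number of genes called. Of 15 measured, 4 fell (0.615% of all genes) and 0 rose (0.236%). A change below 0 was found in 12 (50.8% of all genes), and the median was -0.37. An unadjusted p below 0.05 downward (limma) was found in 9 (9.36% of all genes). SPDEF, an ETS factor of luminal epithelium, was at 132 and 93.8 with DMSO and 58.4 and 46.9 with I-CBP112, and at 44.4 and 38 with A-485 and 22.3 and 16.7 with both. Each matched pair fell, while the levels with I-CBP112 alone lay above those with A-485 alone. Its change was nearly the same without A-485 (-1.07 ± 0.13) and with it (-1.05 ± 0.13), and the main effect was -1.06 ± 0.10 (adjusted p = 0.00947, limma). ELF3, another epithelial ETS factor, was at 31.0 and 22.2 with DMSO, 16.3 and 14.8 with I-CBP112, 42.5 and 29.5 with A-485 and 15.9 and 14 with both. Its 4 libraries with I-CBP112 lay below the 4 without, for a change of -0.96 ± 0.14 (adjusted p = 0.0378, limma).

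GATA2, a zinc-finger transcription factor, was at 96.2 and 81.9 with DMSO, 63.1 and 49.3 with I-CBP112, 85.0 and 74.9 with A-485 and 34.8 and 33.2 with both. Its main effect was -0.93 ± 0.14 (adjusted p = 0.0378, limma), and its groups did not overlap. CREB3L4, a membrane-bound factor of secretory cells, changed by -0.96 ± 0.10 (adjusted p = 0.019, limma), from 59.4 and 53.6 with DMSO to 29 and 25.4 with I-CBP112. FOXA1, a pioneer factor that opens chromatin (0.36 ± 0.15), and HOXB13, a homeobox factor of the prostate (-0.22), were not called.

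Genes that androgen induces had a list median of -0.42, and 27 of 31 had a change below 0 (50.8% of all genes). Of the 31, 2 were called, both lower (0.615% of all genes), and 17 had an unadjusted p below 0.05 downward (9.36%, limma). All 4 matched pairs fell in 16 of them (12.4% of all genes). With the interaction term in the fit, 11 were called lower (1.96% of all genes). TMPRSS2, a cell-surface serine protease, was at 192 and 168 with DMSO and 110 and 82.2 with I-CBP112, and at 74.4 and 66.8 with A-485 and 13.2 and 11.8 with both. I-CBP112 alone again left it above the level with A-485 alone, and both compounds far below. Its change was -1.66 ± 0.28 (adjusted p = 0.048, limma). CENPN, a centromere protein, changed by -1.08 ± 0.16 (adjusted p = 0.0406, limma). Among luminal secretory genes 2 of 16 were called, both lower (0.615% of all genes). Their list median was -0.28, with 12 below 0 and 6 at an unadjusted p below 0.05 downward (limma). ACPP, prostatic acid phosphatase, changed by -1.53 ± 0.19 (adjusted p = 0.0337, limma), from 18.8 and 20.8 with DMSO to 9.35 and 6.09 with I-CBP112, and TSPAN1, a tetraspanin, by -0.82 ± 0.12 (adjusted p = 0.0378, limma). The summed level of the luminal markers, which include KLK3, KLK2 and TMPRSS2, was 2250 to 6010 without I-CBP112 and 1880 to 3630 with it, and its part in these results was not tested.

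The classic target KLK3 had the lowest change of all genes tested, -2.26 ± 0.47, yet was not called (adjusted p = 0.0765, limma). It was at 2282 and 2010 with DMSO, 1094 and 1078 with I-CBP112, 562 and 638 with A-485 and 50.8 and 50.3 with both. The I-CBP112 change was -0.98 ± 0.14 without A-485 and -3.54 ± 0.14 with it, and that unequal pair counts as error in a fit of additive effects. With an interaction term in the fit the same mean change had an adjusted p of 0.000942 (limma). KLK2, a related kallikrein, had a change of -2.19 ± 0.41 (adjusted p = 0.0605, limma) and levels of 557 and 368 with DMSO, 206 and 205 with I-CBP112, 106 and 111.97 with A-485 and 8.30 and 13.6 with both. Its interaction of -2.10 was not called (adjusted p = 0.137, limma). KLK2 and KLK3 are close paralogs, and how reads that fit both were assigned is not given in the labels.

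**Figure D2:**
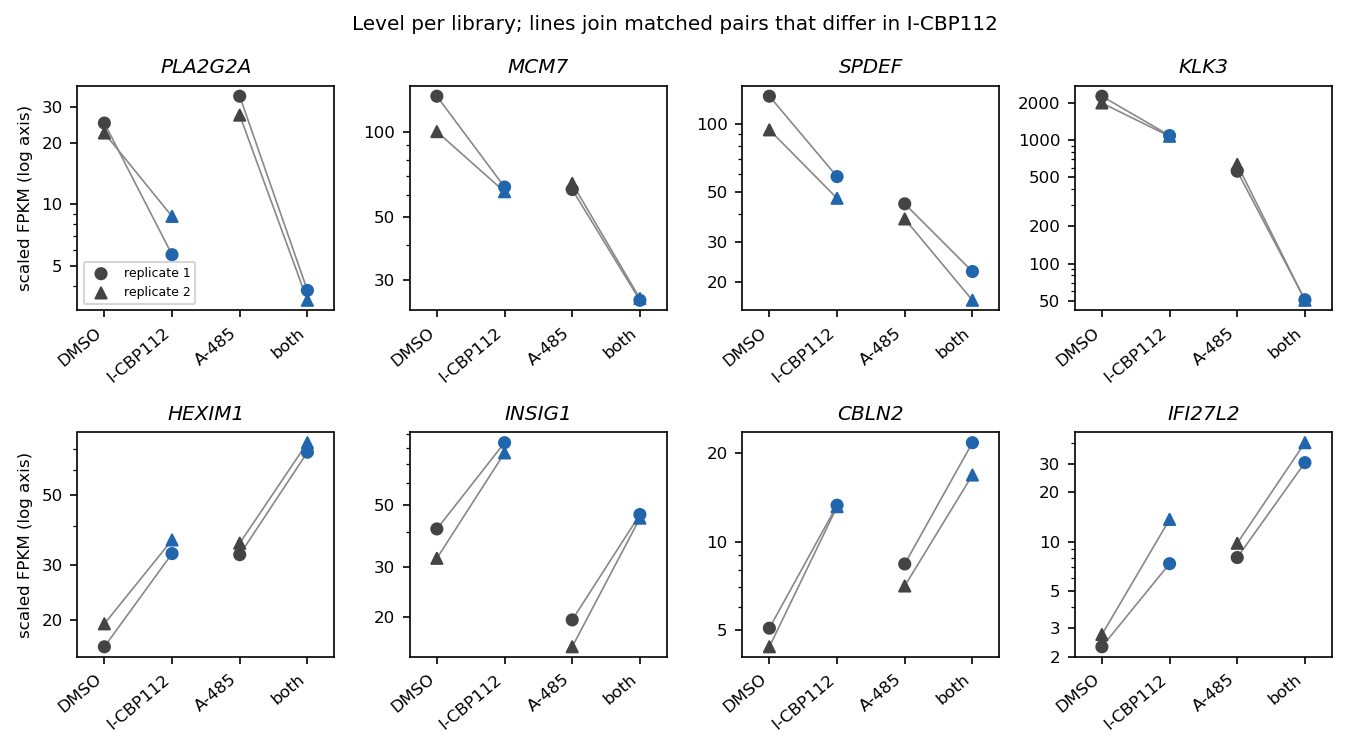
Scaled FPKM per library (vertical axis, logarithmic) by treatment for 8 genes; circles are replicate 1, triangles replicate 2, blue points carry I-CBP112 and lines join matched pairs. In all 8 genes both replicates moved the same way in each background, and KLK3 dropped from 562 and 638 with A-485 to 50.8 and 50.3 with both compounds.

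HGD, an enzyme of tyrosine breakdown, was at 11.8 and 15.9 with DMSO, 4.91 and 4.61 with I-CBP112, 13.1 and 16.5 with A-485 and 0.258 and 1.49 with both. It had the largest fall among the called genes, -2.25 ± 0.36 (adjusted p = 0.0421, limma). PLA2G2A, a secreted phospholipase, was at 25 and 22.3 with DMSO, 5.68 and 8.74 with I-CBP112, 33.8 and 27.3 with A-485 and 3.81 and 3.4 with both. Its groups did not overlap, and its change was -2.19 ± 0.26 (adjusted p = 0.0271, limma), while its A-485 main effect was -0.23 ± 0.26.

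CAMK2N1, an inhibitor of calcium/calmodulin kinase II, was at 101 and 102 with DMSO, 35.4 and 49.1 with I-CBP112, 86.2 and 96.9 with A-485 and 19.1 and 25 with both, and changed by -1.64 ± 0.17 (adjusted p = 0.019, limma). SLC22A3, an organic cation transporter, had a change of -1.44 ± 0.12 (adjusted p = 0.00947, limma) and was called in 4 of the 8 fits with a library left out. Its levels were 64.5 and 59.1 with DMSO, 27.9 and 23.3 with I-CBP112, 27.4 and 26.7 with A-485 and 7.83 and 8.10 with both. AIDA (-1.44 ± 0.20), the recombination helicase RAD54L (-1.40 ± 0.18), USP54 (-1.25 ± 0.16) and the actin-bundling protein LCP1 (-1.21 ± 0.16) completed the 12 largest falls among called genes with a mean of at least 5 scaled FPKM.

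Among the genes that rose, HEXIM1 is the member of the P-TEFb list. Its protein holds the elongation kinase P-TEFb in an inactive complex, and its mRNA is widely used as a readout of bromodomain inhibitors of the BET family. HEXIM1 was at 16.5 and 19.5 with DMSO, 32.6 and 36.0 with I-CBP112, 32.4 and 35.2 with A-485 and 68.5 and 73.4 with both. The levels with either compound alone overlapped, and those with both lay above all others. The main effect was 0.97 ± 0.09 (adjusted p = 0.0138, limma), a 1.96-fold rise, and A-485 had a main effect of 0.95 ± 0.09. HEXIM1 was the member called among 35 bromodomain and P-TEFb genes, beside 0.236% of all genes called higher. The median of that list was -0.03. The targets of both compounds, EP300 (0.04 ± 0.14) and CREBBP (0.01 ± 0.20), were not called, and the sign of these 2 small values changed under some settings.

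INSIG1, which retains the sterol sensor SCAP in the endoplasmic reticulum, was at 41.1 and 32.3 with DMSO, 83.5 and 76.7 with I-CBP112, 19.5 and 15.6 with A-485 and 46.3 and 44.9 with both. The 4 libraries with I-CBP112 lay above the 4 without, and the change was 1.23 ± 0.11 (adjusted p = 0.00947, limma), a 2.34-fold rise. LSS, lanosterol synthase, rose by 0.71 ± 0.11 (adjusted p = 0.041, limma), from 26.6 and 27.5 with DMSO to 46.7 and 38.4 with I-CBP112 and from 25.8 and 18.6 with A-485 to 40.8 and 37.0 with both. These were the 2 called among 25 cholesterol genes (0.236% of all genes were called higher). Of the 25, 17 had a change above 0, as had 5842 of all 11877 genes, and the list median was 0.24. An unadjusted p below 0.05 upward (limma) was found in 10 of them (all genes 7.86%). SQLE, squalene epoxidase (0.47), was not called, nor was any of 18 fatty acid genes (median 0.13). Of those 18, 14 had a change above 0 and 7 had an unadjusted p below 0.05 upward (limma, all genes 7.86%).

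The start regions of HEXIM1 and INSIG1, the called genes of these lists with the smallest p, are shown in the same way. HEXIM1 lies at chr17:45148225-45148474 and INSIG1 at chr7:155297628-155297877, both on the plus strand, and capitals mark the same 4 motifs.
HEXIM1: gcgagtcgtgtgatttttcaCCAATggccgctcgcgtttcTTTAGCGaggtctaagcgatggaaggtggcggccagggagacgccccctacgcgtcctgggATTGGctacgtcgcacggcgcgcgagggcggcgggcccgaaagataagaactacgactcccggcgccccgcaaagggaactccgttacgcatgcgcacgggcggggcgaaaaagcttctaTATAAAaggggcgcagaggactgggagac
INSIG1: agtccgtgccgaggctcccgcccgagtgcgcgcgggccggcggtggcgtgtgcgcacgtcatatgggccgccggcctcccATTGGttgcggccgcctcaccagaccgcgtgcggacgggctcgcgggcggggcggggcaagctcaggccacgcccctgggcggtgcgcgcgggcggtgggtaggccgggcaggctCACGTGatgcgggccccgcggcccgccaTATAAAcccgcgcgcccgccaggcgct
The HEXIM1 region holds 2 copies of CCAAT, 1 of TTTNGCG and 1 of TATAAA, and the INSIG1 region 1 copy of CCAAT, 1 of TATAAA and 1 of CACGTG. Of the start regions of the cholesterol list, 78.9% (15 of 19) held CCAAT, against 35.9% of all. TATAAA was in 22.7% (5 of 22) of those of the genes called higher and 14.3% (8 of 56) of those of the genes called lower, against 5.0% of all. In the planned sets, called by at least 2-fold, it was in 28.6% (2 of 7) of those higher and 4.3% (1 of 23) of those lower. The letters CACGTG were in 9.0% of all.

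IFI27L2, of the interferon-inducible IFI27 family, had the largest rise among the called genes, 1.76 ± 0.14 (adjusted p = 0.00947, limma). It was at 2.3 and 2.73 with DMSO, 7.37 and 13.7 with I-CBP112, 8.03 and 9.81 with A-485 and 30.4 and 40.2 with both. None of the 32 genes of the interferon list was called, at a median of 0.03, and 3 of them had an unadjusted p below 0.05 upward (limma), beside 7.86% of all genes. CBLN2, a secreted synaptic organizer, was at 5.08 and 4.40 with DMSO, 13.3 and 13.1 with I-CBP112, 8.40 and 7.07 with A-485 and 21.7 and 16.8 with both, without overlap between libraries with and without I-CBP112. Its change was 1.26 ± 0.11 (adjusted p = 0.00947, limma).

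MT3, a metallothionein, was listed at 0 in DMSO replicate 1 and at 0.90 in replicate 2, and at 9.91 and 12.2 with both compounds. That contrast also includes A-485. In the matched pairs its log2 change with I-CBP112 was 1.88 and 1.44 without A-485, and 0.99 and 0.73 with it. The main effect for MT3 was 1.26 ± 0.20 (adjusted p = 0.0421, limma). None of the other measured genes of the metallothionein list was called, namely MT1F, MT1G, MT1X, MT2A, MTF1 and SLC30A1. MTF1 and SLC30A1 are not metallothioneins themselves. Metallothioneins are similar in sequence, so the value of MT3 is uncertain to that extent. OPTN, an autophagy receptor, changed by 1.10 ± 0.16 (adjusted p = 0.0378, limma). It was the member called among 32 autophagy and lysosome genes (0.236% of all genes were called higher). RAB3IP (1.01 ± 0.16), C17orf58 (0.99 ± 0.15), the p38 kinase activator MAP2K6 (0.96 ± 0.14), glutaredoxin GLRX (0.94 ± 0.16), CLUL1 (0.91 ± 0.14) and the adaptor SHC2 (0.90 ± 0.11) completed the 12 largest rises by the same rule.

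In the stress and growth lists few genes were called, though the ATF4 and p53 lists leaned lower. Of 28 ATF4 targets, 23 had a change below 0 (50.8% of all genes) and 10 had an unadjusted p below 0.05 downward (9.36%, limma). Among 26 p53 targets the same counts were 23 and 9. PYCR1, a proline synthesis enzyme, was the member called among the ATF4 targets (0.615% of all genes were called lower), at -0.65 ± 0.11 (adjusted p = 0.0487, limma). Its levels were 886 and 431 with DMSO, 534 and 305 with I-CBP112, 266 and 146 with A-485 and 152 and 98.6 with both. GDF15, a secreted stress cytokine, was the member called among the 26 p53 targets, at -0.86 ± 0.12 (adjusted p = 0.0378, limma). CDKN1A, which encodes the kinase inhibitor p21, changed by -0.24 ± 0.12 without passing the test. MYC changed by -1.10 ± 0.24 (adjusted p = 0.082, limma), and none of the 31 genes of its ribosome biogenesis list was called. The median of that list was -0.20, with 7 at an unadjusted p below 0.05 downward (limma, 9.36% of all genes). For 34 ribosomal protein genes the median was 0.01, with 0 called and 0 at an unadjusted p below 0.05 in either direction (limma).

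The lists of aminoacyl-tRNA synthetases (14 genes, median -0.30), endoplasmic reticulum folding (27, -0.18), oxidative phosphorylation (30, 0.04), glycolysis and hypoxia (29, 0.04), NF-kB (15, -0.03), CREB and immediate early genes (16, 0.01), acetyltransferases and deacetylases (29, 0.05), canonical histone genes (23, 0.07) and splicing kinases and SR proteins (27, 0.03) held 0 called genes. At an unadjusted p below 0.05 (limma) they held 5, 5, 1, 4, 3, 7, 5, 5 and 4 genes in either direction, in the same order, beside 17.2% over all genes. The 5 synthetase genes and the 5 folding genes were all lower, beside 9.36% of all genes. A change below 0 was found in 13 of 14 synthetase genes and 21 of 27 folding genes (50.8% of all genes). On the deposited FPKM the overall median became 0.13 in place of -0.004, and the medians of NF-kB and of the bromodomain list, -0.03 each, became 0.08 and 0.12. The medians of the replication (-0.48), G2/M (-0.28), androgen-induced (-0.24) and lineage (-0.19) lists stayed below 0 on that scale, and that of the cholesterol list was 0.38.

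**Figure D3:**
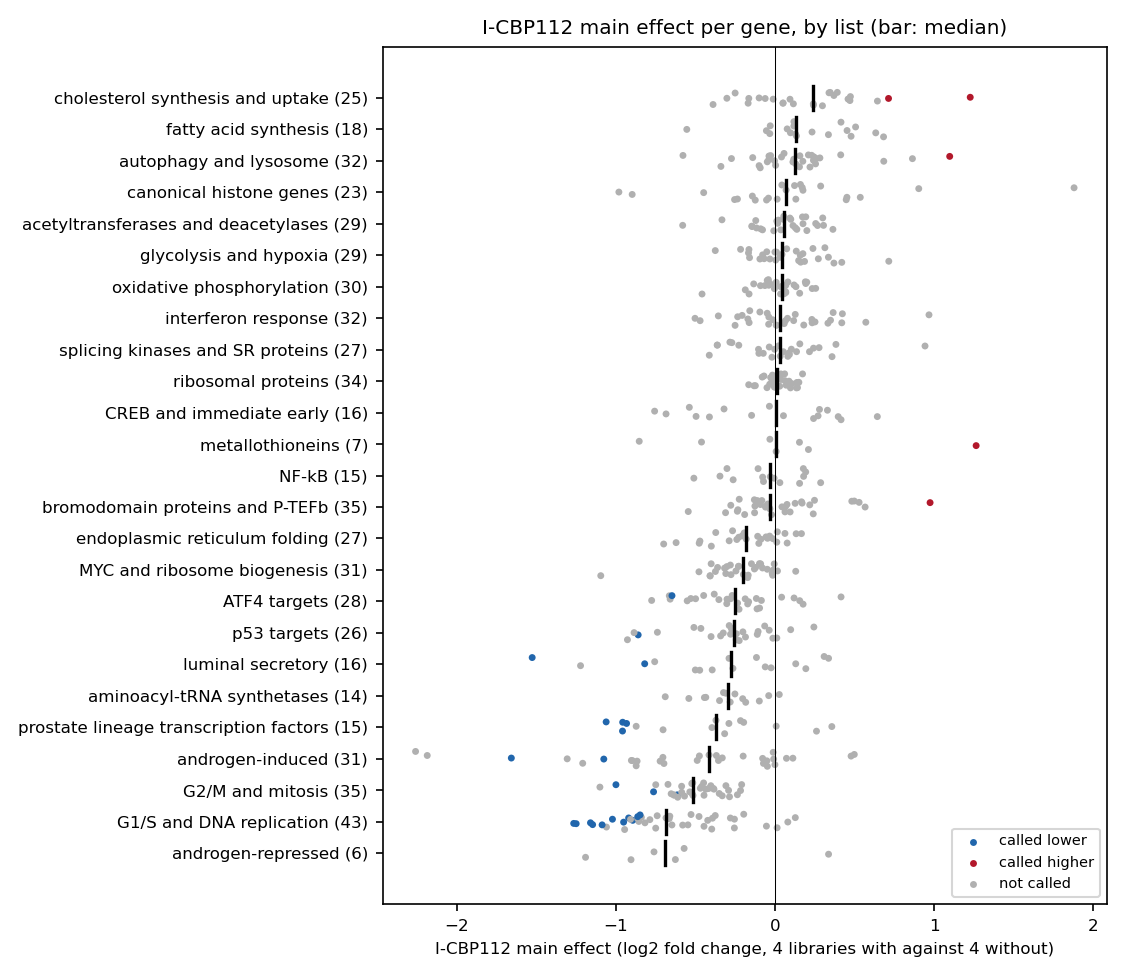
I-CBP112 main effect (horizontal axis, log2 fold change over 4 libraries with and 4 without) for each tested gene of 25 lists (vertical axis, number of genes in brackets); black bars are list medians, blue genes were called lower, red genes higher and grey genes were not called. Blue points gather in the G1/S list, 11 of 43 genes, and red points are 5 in all.

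The responses to both compounds could be set side by side because the design crossed them. They come from the same 8 libraries and therefore share libraries, and doses are not known to match in effect. A-485 was called in more genes, 1143 lower (9.62%) and 491 higher (4.13%). Of the 73 genes called lower for I-CBP112, 47 were also called lower for A-485, 26 were not called and 0 were called higher. Of the 28 called higher, 10 were also called higher, 15 were not called and 3 were called lower, namely INSIG1, C17orf58 and ADD3.

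The difference between the main effects, I-CBP112 minus A-485, was tested for every gene and called in 82 (0.69%), 76 positive and 6 negative (37 and 94 on the FPKM as deposited), of which 5 were also called for I-CBP112. INSIG1 had the largest of the 5, 2.14 ± 0.15 (adjusted p = 0.00182, limma), since A-485 changed it by -0.91 ± 0.11. C17orf58 differed by 1.84 ± 0.21 (adjusted p = 0.015, limma). Its levels were 7.28 and 6.09 with DMSO, 11.6 and 16.8 with I-CBP112, 2.70 and 3.71 with A-485 and 6.64 and 8.26 with both. ADD3, adducin 3 of the membrane skeleton, was at 6.49 and 7.69 with DMSO, 12.5 and 10.7 with I-CBP112, 3.55 and 3.65 with A-485 and 9.35 and 8.67 with both, and differed by 1.45 ± 0.21 (adjusted p = 0.0327, limma). In these 3 genes the levels with both compounds were near or a little above those with DMSO.

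IER5L, an immediate early response 5-like gene, differed the other way, by -1.44 ± 0.18 (adjusted p = 0.0185, limma). It was at 13.6 and 8.74 with DMSO, 5.11 and 4.05 with I-CBP112, 15.7 and 12.6 with A-485 and 5.74 and 5.35 with both, and its A-485 main effect was 0.29 ± 0.13. PYCR1 differed by 1.03 ± 0.16 (adjusted p = 0.0385, limma) because the A-485 change, -1.68 ± 0.11, was the larger fall. The ELF3 difference of -1.14 ± 0.20 did not pass (adjusted p = 0.0529, limma), nor did that of PLA2G2A, -1.96 ± 0.36 (adjusted p = 0.065). For HEXIM1 the difference was 0.02 ± 0.13 (adjusted p = 0.953, limma) and for MCM7 -0.03 ± 0.19 (adjusted p = 0.95).

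**Figure D4:**
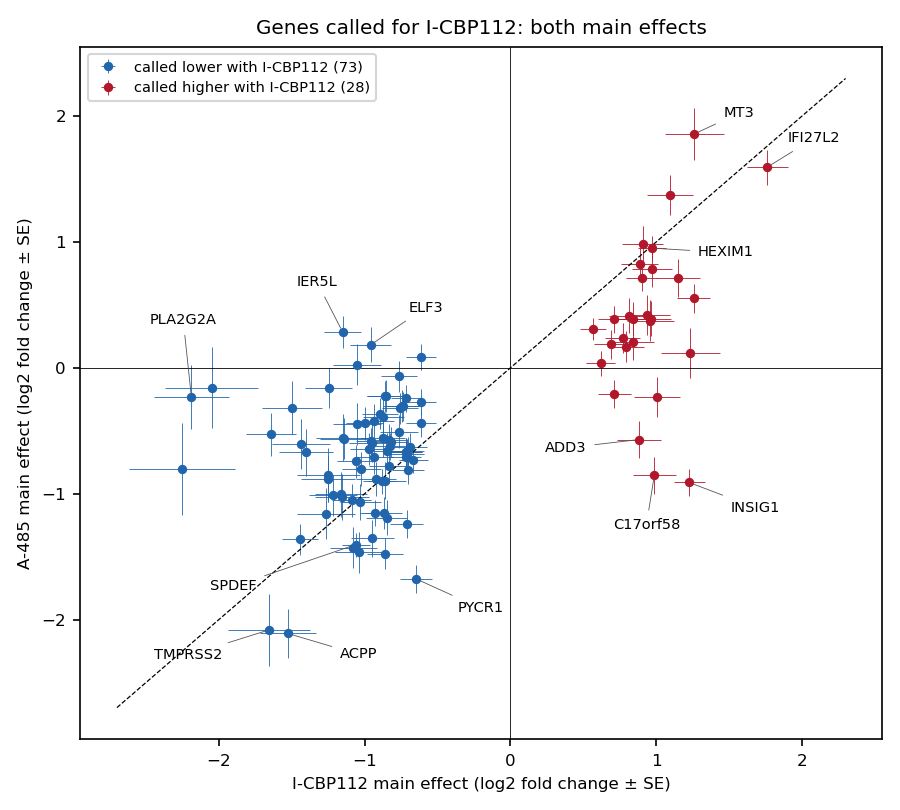
I-CBP112 main effect (horizontal axis) and A-485 main effect (vertical axis), both log2 fold change ± standard error, for the 101 genes called for I-CBP112; blue genes were called lower and red genes higher, and the dashed line marks equal effects. INSIG1, C17orf58 and ADD3 lie to the lower right, with opposite signs, and HEXIM1 lies on the line.

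Since A-485 was present in 2 of the 4 pairs, each effect could be split by its background. In the genes called lower the median change was -0.80 without A-485 and -0.97 with it, and 47 of 73 changed more with it. In the genes called higher the medians were 0.91 and 0.94, and 18 of 28 changed more with A-485. Because an unequal change counts as error in the additive fit, the choice of these 101 genes disfavoured genes whose change differed between backgrounds. By replicate prefix the medians of the genes called lower were -1.0 and -0.93 for replicates 1 and 2, and those of the genes called higher 0.79 and 1.0.

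The interaction was called in 11 genes (0.0926%), all with a lower value with both compounds than the sum of the separate changes gives, and 0 of the 11 were called for the I-CBP112 main effect in the additive fit. With the interaction term in the fit, 10 of the 11 were called lower for that main effect (1.96% of all genes). Among them, besides KLK3, were TFPI, BCHE, DDC, ACKR3, PLK2, MAOA, COLCA1, UGT2B15 and UGT2B17. Of the 11, 5, namely BCHE, DDC, ACKR3, UGT2B15 and UGT2B17, are members of the androgen-repressed list, of which 6 were tested. The median I-CBP112 change of those 6 was 0.24 without A-485 and -1.77 with it. MAOA, monoamine oxidase A, was at 274 and 249.8 with DMSO, 299 and 300.0 with I-CBP112, 155 and 163 with A-485 and 41.7 and 46.2 with both. Without the replicate prefix as a covariate, 0 genes had a called interaction and 1051 had an unadjusted p below 0.05 (limma). On the FPKM as deposited 11 were called, 5 positive and 6 negative.

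**Figure D5:**
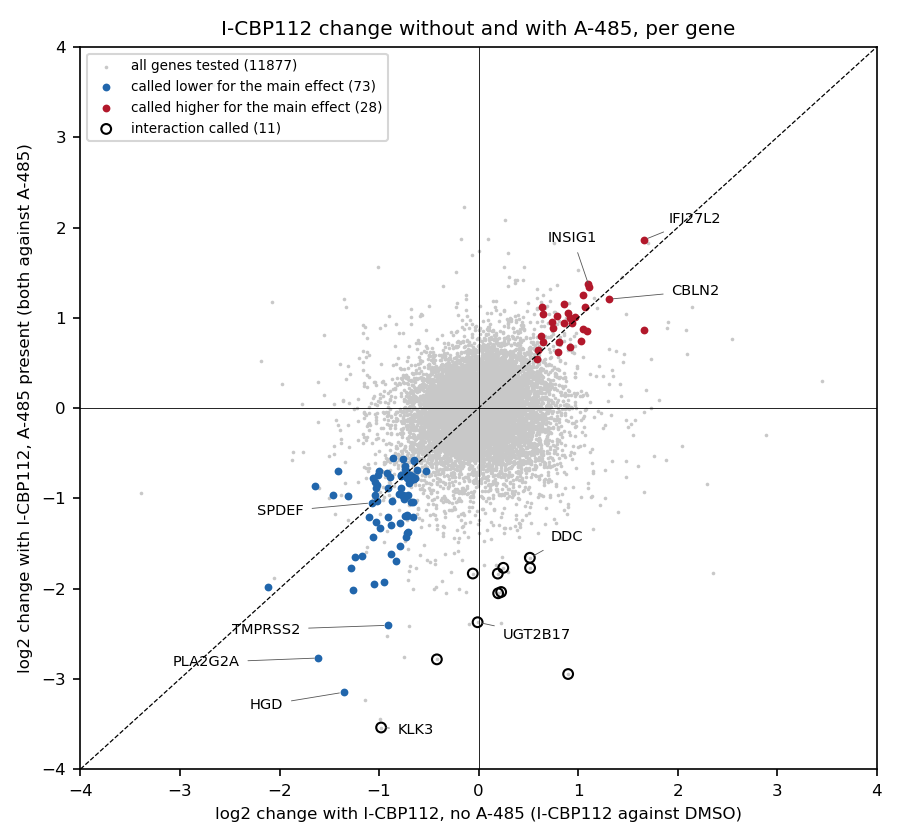
Log2 change with I-CBP112 without A-485 (horizontal axis) and with A-485 (vertical axis) for 11877 genes; blue and red points are the 73 and 28 genes called for the main effect, open circles the 11 with a called interaction, and the dashed line marks equal change. The open circles lie below the line, with KLK3 at -0.98 and -3.54, and INSIG1 and SPDEF lie near it.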

How the data were processed

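Total RNA from LNCaP-FGC cells was treated with DNase and made into libraries with a New England Biolabs kit, per the labels' protocols. Per the submitters' processing notes, Cufflinks, STAR, DESeq2 and DESeq were used with GRCh37 (hg19), with no version or role stated there. The deposited table of 81591 transcripts was named as counts, but 78.3% of the authors' values were not whole numbers and low values were steps that scaled with transcript length (71.4% to 80.6% of low values whole within 0.1 fragment), so the deposited values were treated as FPKM. The step gave the approximate fragment numbers.

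Of the transcripts, 74209 (91.0%) matched GENCODE release 29 by identifier and held 95.7% to 96.6% of the FPKM. They were summed to 19431 genes, scaled to a total of 1e+06 and by a trimmed mean of log ratios (30% of ratios and 5% of levels trimmed). Genes at 1 or more in at least 2 libraries (11877) were tested by linear models of log2(scaled FPKM + 1) in limma 3.58.1 (trend, robust; R 4.3.3), with I-CBP112, A-485 and the replicate prefix as terms (4 residual degrees of freedom, 3 with the interaction). The design had allowed for counts and the limma test was used because the values were FPKM. Fits were checked on simulated data.

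Deviations of same-numbered libraries from their group means correlated at 0.144 to 0.425 across the 6 pairs of groups, all with 2 libraries a group, and the prefix was kept as a block. Named genes were the 12 largest falls and 12 largest rises among called genes with a mean of at least 5 scaled FPKM, up to 4 called members of each list or, with none called, its 2 members with the smallest p, a panel of known genes, genes of the interaction and difference tests, and cell type markers. Some genes are not reported here. Start regions matched by symbol for 9628 genes. The members, lists and tests were chosen with earlier results of these data known.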

Additional observations from a re-analysis of the deposited data

Results flagged for a closer look

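In 11 genes the I-CBP112 change differed between the backgrounds without and with A-485, by the test of the interaction itself (limma, Benjamini-Hochberg over 11877 genes). All 11 interactions were negative. For KLK3 the interaction was -2.56 (adjusted p = 0.021, limma), with an I-CBP112 change of -0.98 without A-485 and -3.54 with it.

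In the androgen-repressed list the interaction was -2.29 for BCHE (butyrylcholinesterase), -2.17 for DDC (DOPA decarboxylase) and -2.02 for ACKR3 (a chemokine receptor). It was -2.26 for UGT2B15 and -2.36 for UGT2B17, enzymes that conjugate androgens to glucuronic acid. UGT2B15 and UGT2B17 are near-identical paralogs, so the split of reads between them is uncertain. DDC was at 97.2 and 114 with DMSO, 133 and 171 with I-CBP112, 27 and 36.1 with A-485 and 7.42 and 11.4 with both. ACKR3 was at 125 and 107 with DMSO, 154 and 123 with I-CBP112, 153 and 147 with A-485 and 44.5 and 42 with both, so that the fall stood with both compounds and not with either alone.

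The other values were -2.25 for TFPI (an inhibitor of the tissue factor pathway of coagulation), -2.03 for MAOA, -1.78 for PLK2 (a polo-like kinase) and -2.37 for COLCA1. TFPI was at 33.5 and 42.9 with DMSO, 36.8 and 51.7 with I-CBP112, 31.5 and 40.6 with A-485 and 7.38 and 8.4 with both. In each of the 11 genes the libraries with both compounds were below the other 6. With each library left out in turn, the number of genes with a called interaction ran from 0 to 597. It was 597 without DMSO replicate 2 (246 positive, 351 negative), 17 without DMSO replicate 1 (2 positive, 15 negative), 1 without replicate 1 of the combination (positive) and 0 without any other single library, where 705 to 1937 genes had an unadjusted p below 0.05 (limma).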

How the results depend on the processing

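Over 23 alternatives, values of 92 named genes kept direction and side of the threshold in 1572 cases, lost the call in 442, gained one in 78 and changed sign in 14. Of the named genes 42 were called in the main fit, and only these could lose a call. All 42 lost it without either A-485 library and without replicate 1 of the combination. The 1572 cases include genes that were not called and stayed so. The main effect called 101 genes (28 higher, 73 lower). It called 313 with an interaction term, 6 without a filter on low values (more genes tested), 36 with limma without trend or robust spread, 1027 with library weights (whose estimate stopped before converging), and 319 with voom on approximate fragments. In fits added after seeing the data it called 130 in replicate 1 libraries alone (38 higher, 92 lower) and 2 in replicate 2 libraries alone, with 931 and 1577 genes at an unadjusted p below 0.05 (limma). Leaving out 1 library gave 0 to 192, with 1323 to 2792 genes at an unadjusted p below 0.05 (limma). Without the replicate block it called 72 (16 higher, 56 lower), on FPKM as deposited 128 (77 higher, 51 lower) and with total scaling only 78 (38 higher, 40 lower). The interaction called 11 genes, but 0 without the replicate block, 0 without a filter, 26 with the filter of 5 in 4 libraries, 11 on deposited FPKM (5 higher, 6 lower) and 0 to 597 with 1 library left out. In the fits with 0, between 705 and 1966 genes had an unadjusted p below 0.05 (limma). The difference between compounds called 82 (76 higher, 6 lower), and 20 without a filter, 131 on deposited FPKM (37 higher, 94 lower), 52 with total scaling only and 4 to 284 with 1 library left out. Apart from what the construction of an alternative shows, the cause was not tested.

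The sign changed for ITGB4 (-0.35 to 0.11 with 1 library left out, the latter without A-485 replicate 2). EP300 was -0.04 with library weights and -0.07 to 0.15 with 1 library left out, including -0.01 without A-485 replicate 2 and -0.02 without I-CBP112 replicate 2. CREBBP was -0.00 with a pseudocount of 5, -0.09 with library weights, -0.06 with voom, -0.16 in replicate 2 libraries alone and -0.22 to 0.15 with 1 library left out (-0.03 and -0.04 without I-CBP112 replicate 1 and 2, -0.04 without A-485 replicate 2 and without replicate 1 of the combination). Fragments on matched transcripts, fewest at 4.44e+06 in I-CBP112 replicate 2 (21.5% of the number behind its FPKM), limit genes of low level.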

Other observations

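Outside the lists lay 72 of the 101 called genes, and those named here were chosen after their values were seen. RAD54L, of homologous recombination, was at a scaled FPKM of 14.4 and 16.6 in the DMSO libraries, 6.0 and 6.6 with I-CBP112, 11.2 and 11 with A-485 and 3.97 and 2.06 with both. FANCD2 (-0.87 ± 0.14) and FANCI (-0.86 ± 0.13), partners in the repair of DNA crosslinks, fell together (adjusted p = 0.0421 and 0.0384, limma), and neither was called for A-485. CDK2, the kinase of S phase entry (-0.74 ± 0.11), EZH2, the histone methyltransferase of Polycomb (-0.70 ± 0.11), and DTL, a substrate receptor of a ubiquitin ligase active in S phase (-1.16 ± 0.18), were also called lower. KLF4, a zinc-finger factor, was at 5.58 and 6.15 with DMSO, 2.61 and 2.06 with I-CBP112, 6.78 and 6.29 with A-485 and 0.943 and 0.958 with both, a change of -1.50 ± 0.21 (adjusted p = 0.0378, limma).

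TUBB3, a neuronal beta-tubulin, was at 26.6 and 15.5 with DMSO, 33.6 and 36.0 with I-CBP112, 29.4 and 23.2 with A-485 and 55.0 and 43.7 with both, for a change of 0.82 ± 0.14 (adjusted p = 0.048, limma). CPLX1, a regulator of synaptic vesicle fusion (0.84 ± 0.13), and DPYSL2, a microtubule-binding protein of axon growth (0.77 ± 0.12), rose as well. In all 3 genes the 4 libraries with I-CBP112 lay above the 4 without, as in 18 of the 28 genes called higher and 2.18% of all genes. The summed level of 7 neuroendocrine markers was 19.3 to 37.7 without I-CBP112 and 32.1 to 78.0 with it, most of it ENO2 (0.71 ± 0.19, adjusted p = 0.117, limma), while CHGA, CHGB, NCAM1 and INSM1 stayed below 1 in every library. ENO2 also belongs to the glycolysis and hypoxia list. Neither of the 2 with enough signal to test, ENO2 and SYP, was called, and the part of the markers in these rises was not tested.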
